A study of Mus musculus with 31 samples.

Results

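The genes described here are 10 transcription regulators that act when a Schwann cell commits to myelination: Egr1, Egr2, Egr3, Pou3f1, Pou3f2, Nab1, Nab2, Sox2, Jun and Zeb2. They were chosen by symbol, for their known roles but with earlier results of these data known. All 10 were found among the 47729 genes counted. RNA was measured in pieces of nerve cut by laser from cryosections of mouse embryos of 3 stages (E11.5, E13.5 and later E16.5), giving 31 libraries in 7 groups. At E16.5 there were 4 libraries of olfactory nerve from the olfactory mucosa, 4 of the outer olfactory nerve layer (ONL, the layer of axons and glia around the olfactory bulb), 4 of the inner ONL next to the bulb, and 3 of trigeminal nerve branches near the olfactory system. At E13.5 there were 7 of olfactory nerve and 5 of ONL, and at E11.5 there were 4 of olfactory nerve.

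All embryos carried the Sox10:H2BVenus BAC transgene, which marks nuclei of Sox10-expressing glia with a fluorescent protein, and the pieces were cut by that fluorescence, so differences in Sox10 itself are no finding here. Tissue of 4 to 7 sections was pooled for a sample, and a piece holds every cell type inside the cut, axons included. Inner and outer ONL were separated by position only. Within each E16.5 group the pieces came from as many embryos as there were pieces. The paper states that the olfactory nerve, ONL and trigeminal pieces of E16.5 were taken from shared sections. The E16.5 groups therefore share embryos, and the main fit did not pair them. At the earlier stages the 4 pieces of E11.5 nerve came from 2 embryos. The 7 of E13.5 nerve came from 4 embryos and the 5 of E13.5 ONL from 4. Some early libraries therefore share an embryo, the labels do not say which, and p-values over the early pieces are too small. For all groups a p-value measures the spread between pieces.

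The library labels and the groups did not match at the early stages. With the libraries labelled E11.5 olfactory nerve 1 to 4 and E13.5 olfactory nerve 1 as E13.5 ONL, those labelled E13.5 olfactory nerve 2 to 7 and E13.5 ONL 1 as E13.5 nerve, and those labelled E13.5 ONL 2 to 5 as E11.5 nerve, the group means of the counts matched the group means that the study published, with a median absolute deviation of at most 1.6e-06 on the log2 scale, against up to 0.427 with the groups of the labels. That arrangement moves 10 libraries and leaves 21 in place. It is used below, and the tests between early groups are also given with the libraries grouped by label. Levels, ratios and orders that involve an early group are in this arrangement unless the labels are named. The 15 E16.5 libraries keep their labels in both, but they share a fit with the early libraries, so their p-values also move with the grouping.

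Total counts ranged from 3512627 to 36705535 per library. The trigeminal libraries held 30221586 to 32508725 counts and the other E16.5 libraries 13379107 to 16800784. Levels are given in CPM, as the mean ± SD over libraries. CPM is the count scaled by the library total after that total was adjusted by TMM, the scaling used in the main fit. The levels are therefore not scaled to the raw total count. Of the genes used as Schwann cell markers, Dhh, a Schwann cell signal, stood at 42.3 ± 9.36 CPM in trigeminal nerve and 3.88 ± 1.19 in outer ONL. The sum of all 8 Schwann cell markers did not set trigeminal nerve apart, at 1593 to 1882 CPM against 4523 to 6881 in outer ONL. The 8 markers of olfactory ensheathing cells (OECs), the glia of the olfactory nerve, summed to 20689 to 36766 CPM in outer ONL and 1310 to 1600 in trigeminal nerve.

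Schwann cells and OECs both arise from the neural crest and both express Sox10, but OECs do not myelinate axons in the intact olfactory nerve, while Schwann cells can. In a Schwann cell that has met a large axon, Sox10 together with the POU factors Pou3f1 (also known as Oct6) and Pou3f2 (Brn2) switches on Egr2 (Krox20), and Egr2 with its corepressors Nab1 and Nab2 turns on myelin and lipid genes and turns off the immature program. Sox2 and Jun (c-Jun) are known to hold Schwann cells in the immature state, and Zeb2 is known to repress such inhibitors and so permit differentiation. Egr1 and Egr3 bind the same DNA element as Egr2, and Egr1 and Jun are also immediate early genes, induced in most cells by growth factors or stress.

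All 10 are protein-coding genes. On GRCm38 (GENCODE annotation) Egr2 lies at chr10:67535475-67542188 on the + strand, Egr3 at chr14:70077203-70082614 on the + strand, Pou3f1 at chr4:124656807-124660655 on the + strand and Pou3f2 at chr4:22482780-22488366 on the - strand. Nab1 lies at chr1:52457294-52500679 and Nab2 at chr10:127660918-127668568, both on the - strand. Sox2 lies at chr3:34650405-34652461 on the + strand, Jun at chr4:95049034-95052222 on the - strand and Zeb2 at chr2:44983632-45117395 on the - strand.

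RefSeq promoters on GRCm38.p6, each covering 250 bases before a start and 50 from it, were at hand for 7 of the 10 genes. They were searched on both strands for an EGR site (GCGNGGGCG), a cyclic AMP response element (TGACGTCA), an AP-1 site (TGANTCA), the POU octamer (ATGCAAAT), the CArG box bound by serum response factor, and an E-box (CAGGTG). The sequence before the Egr2 start at base 67537869 is shown because it holds an octamer, the element that POU factors bind, as well as a CArG box, both in capitals. It covers chr10:67537619-67537868 on the + strand.
Egr2: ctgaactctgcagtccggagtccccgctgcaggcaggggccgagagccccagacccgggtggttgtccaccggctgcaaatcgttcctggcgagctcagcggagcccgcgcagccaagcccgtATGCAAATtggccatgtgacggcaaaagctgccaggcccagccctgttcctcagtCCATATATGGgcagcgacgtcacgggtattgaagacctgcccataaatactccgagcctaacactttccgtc
The octamer begins 127 bases before the start and the CArG box 72 bases before it. Other Egr2 starts differed: the window at base 67535499 held none of the 6 motifs, and that at base 67537566 held a CArG box only. The windows at bases 67537870 and 67537930 overlap the one shown and hold the same octamer and CArG box. An octamer occurred in 1.74% of the 32851 promoters searched and a CArG box in 1.63%.

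Nab1 held 3 EGR sites, in capitals below with their flanks, 141, 109 and 38 bases before the start, and Pou3f2 held 1 that runs across its start. They are shown because Egr1, Egr2 and Egr3 bind this element and the NAB proteins bind the EGR factors. The 4 stretches are printed along the gene, which lies on the - strand of the genome, and the first Nab1 match is on the opposite strand of the gene.
Nab1 (chr1:52500573-52500597): cccgcggcCGCCCACGCcgggatct
Nab1 (chr1:52500541-52500565): tcggccgcGCGTGGGCGggagccgg
Nab1 (chr1:52500470-52500494): ggggcgggGCGGGGGCGgcggaggt
Pou3f2 (chr4:22488358-22488382): gagaaagaGCGAGGGCGggcgggcg
An EGR site occurred in 5.55% of all promoters. A start of Zeb2 held 2 AP-1 sites, a motif found in 7.81% of promoters, and none of the 6 motifs was found at the starts of Nab2, Sox2 and Jun. These matches describe letters in a window and are not measurements of binding.

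On the level scale per length of exon (CPM per kilobase), the order of the genes differed between nerves. In E16.5 trigeminal nerve Jun (16.4 CPM per kilobase), Egr1 (13.7), Nab2 (10.1), Zeb2 (8.65), Nab1 (7.80) and Egr2 (4.77) led, and Sox2 (1.90), Pou3f2 (1.16), Egr3 (0.95) and Pou3f1 (0.675) were low. In E16.5 outer ONL Jun (7.92) and Zeb2 (4.40) led, and Egr2 (0.325), Pou3f1 (0.211), Sox2 (0.209) and Egr3 (0.0405) were lowest. In E13.5 ONL Pou3f2 (12.6) was the highest of the 10, ahead of Jun (8.79) and Pou3f1 (7.28). Grouped by label, Jun (25.5) led there and Pou3f2 stood at 0.216.

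**Figure D1:**
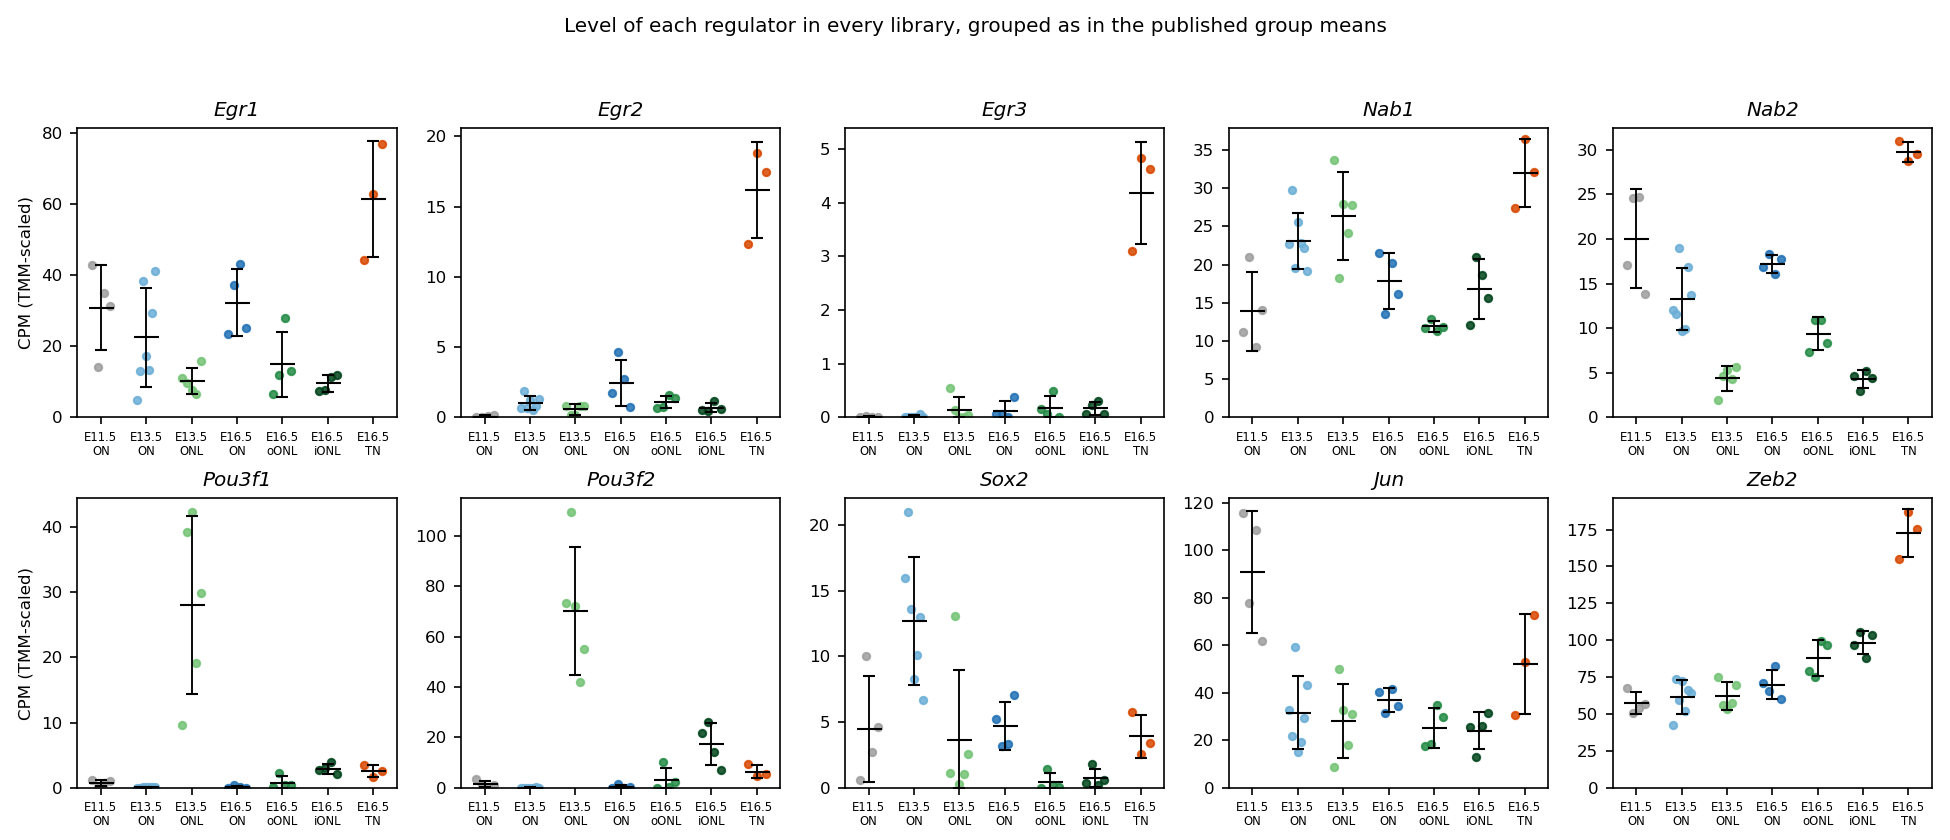
Level of each of the 10 genes in CPM, in a panel of its own with a linear axis, for the 7 groups (ON, olfactory nerve; oONL and iONL, outer and inner ONL; TN, trigeminal nerve). Each point is a library, the black bar is the group mean and the error bar is 1 SD, cut at 0. Egr2 and Egr3 stand out in trigeminal nerve, and Pou3f1 and Pou3f2 in E13.5 ONL as grouped here, at 28.0 and 70.3 CPM on average.

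Egr2, the factor that drives myelination, was highest in E16.5 trigeminal nerve. The 3 trigeminal libraries held 12.3, 18.8 and 17.4 CPM. The 4 olfactory nerve libraries held 1.73, 4.64, 2.73 and 0.774 CPM, and the 4 outer ONL libraries 0.690, 0.753, 1.56 and 1.40. Every trigeminal library lay above every library of the olfactory system, while olfactory nerve and outer ONL overlapped. In edgeR's quasi-likelihood test, with p-values adjusted by Benjamini-Hochberg over all 19332 genes tested and called under 0.05, Egr2 was 14.6-fold lower in outer ONL than in trigeminal nerve (log2 fold change -3.87, SE 0.63, adjusted p = 2.15e-05). It was 6.56-fold lower in olfactory nerve (-2.71, SE 0.60, adjusted p = 0.00106). Outer ONL and olfactory nerve differed by -1.15 (SE 0.58, adjusted p = 0.168), which did not pass. All adjusted p-values below come from this test unless another is named. The SE is an approximation, the absolute log2 fold change divided by the square root of the test's F statistic.

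Egr3 followed the same order at lower levels. It stood at 3.10, 4.83 and 4.63 CPM in the trigeminal libraries. In olfactory nerve it was at 1, 1, 0 and 7 counts and in outer ONL at 2, 1, 7 and 0 counts, so these 2 groups rest on 9 and 10 counts in all. Outer ONL lay below trigeminal nerve by -4.53 (log2, SE 0.97, adjusted p = 0.000604) and olfactory nerve by -4.92 (SE 0.98, adjusted p = 0.000333). Each of the low groups had 7 of its counts in 1 library. Without outer ONL replicate 3 the first difference was -5.80, and without olfactory nerve replicate 4 the second was -6.42. Between outer ONL and olfactory nerve Egr3 was not measured well enough for a direction, since the estimate of 0.38 (SE 0.99, adjusted p = 0.846) ran from -0.89 to 1.84 as libraries were left out.

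Egr1, also an immediate early gene, was present in every library. It stood at 44.2, 62.9 and 76.9 CPM in trigeminal nerve, at 23.5, 37.3, 43.0 and 25.1 in olfactory nerve and at 6.52, 11.99, 28.0 and 12.99 in outer ONL. The trigeminal values lay above those of both other groups, and outer ONL replicate 3 overlapped olfactory nerve. Outer ONL was 4.12-fold lower than trigeminal nerve (-2.04, SE 0.49, adjusted p = 0.00185). The difference between outer ONL and olfactory nerve was -1.11 (SE 0.46, adjusted p = 0.0794) and did not pass. It passed in 5 of 8 other settings, the label grouping apart. These were the replicate number as a block (-1.26, adjusted p = 0.00335), the E16.5 libraries alone (0.0189) and only the groups compared (0.0462). Total count scaling (0.0498) and DESeq2 (0.0365) were the others. With 1 library left out it passed only without outer ONL replicate 3 (-1.61, adjusted p = 0.0163). The difference between olfactory and trigeminal nerve, -0.93 (SE 0.48, adjusted p = 0.169), did not pass although no values overlapped. It passed with only the groups compared (-0.87, adjusted p = 0.0195) and with the replicate block (-0.79, adjusted p = 0.0209). The 22 other immediate early genes summed to 913 to 1002 CPM in trigeminal nerve, 589 to 757 in olfactory nerve and 357 to 456 in outer ONL. The group means of Egr1 and Egr2 had the same order. Their part in the differences of Egr1, Egr2 and Egr3 was not tested.

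The corepressors Nab1 and Nab2 were stepped in the order trigeminal nerve, olfactory nerve, outer ONL. Nab2 stood at 30.99, 28.8 and 29.5 CPM in trigeminal nerve, 16.8, 18.3, 16.05 and 17.8 in olfactory nerve and 7.36, 10.9, 10.95 and 8.30 in outer ONL, and the 3 groups did not overlap. Nab2 was lower in outer ONL than in olfactory nerve (-0.88, SE 0.25, adjusted p = 0.0102) and than in trigeminal nerve (-1.66, SE 0.26, adjusted p = 1.38e-05). It was also lower in olfactory than in trigeminal nerve (-0.79, SE 0.26, adjusted p = 0.027), a call that was lost when any of 6 of the 7 libraries was left out. With all libraries, that call was also lost under scaling to total count (-0.53, adjusted p = 0.155) or upper quartile (-0.68, adjusted p = 0.065). The same held with the libraries grouped by label (-0.79, adjusted p = 0.0769). Nab2 overlaps Nemp1 and Stat6 on the opposite strand and the counting may not have used strand, so some of its reads could belong to them. Sox2ot overlaps Sox2 on the same strand and held 1 to 231 counts per library, against 0 to 370 for Sox2. Strand cannot separate their reads, a limit on the Sox2 values below. The other transcripts that overlap members, Junos, Zeb2os and Gm2164 among them, held at most 100 counts in any library.

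Nab1 stood at 27.5, 36.4 and 32.1 CPM in trigeminal nerve, 21.5, 13.48, 20.2 and 16.1 in olfactory nerve and 11.7, 12.9, 11.3 and 11.8 in outer ONL. Again the 3 groups did not overlap. Nab1 was lower in outer ONL than in trigeminal nerve (-1.42, SE 0.24, adjusted p = 2.66e-05) and lower in olfactory nerve than in trigeminal nerve (-0.84, SE 0.24, adjusted p = 0.00837). That call was lost without trigeminal replicate 2 (-0.72, adjusted p = 0.0656) and with total count scaling (-0.59, adjusted p = 0.0856). Outer ONL and olfactory nerve differed by -0.58 (SE 0.22, adjusted p = 0.0611), which did not pass. That difference passed in 4 of 8 other settings, the label grouping apart. These were total count scaling (adjusted p = 0.0312), a filter of 10 CPM in 3 libraries (0.0441), the E16.5 libraries alone (0.0376) and DESeq2 (0.0297). With 1 library left out it passed only without olfactory nerve replicate 2 (-0.69, adjusted p = 0.0329).

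The POU factors set olfactory nerve apart from trigeminal nerve. Pou3f1, which acts just before Egr2 in Schwann cells, stood at 3.57, 1.69 and 2.53 CPM in trigeminal nerve. In olfactory nerve it held 0, 6, 1 and 1 counts, at most 0.371 CPM. It was 20.2-fold lower there (-4.34, SE 0.80, adjusted p = 0.000137). Pou3f2, the related factor that can partly stand in for Pou3f1, stood at 9.33, 4.83 and 5.33 CPM in trigeminal nerve and at 0, 1.61, 0 and 0.332 CPM in olfactory nerve. It was 13.2-fold lower in olfactory nerve (-3.72, SE 0.94, adjusted p = 0.00374). These folds rest on few counts, most of them in olfactory nerve replicate 2, without which the differences were -5.79 for Pou3f1 and -5.69 for Pou3f2. Grouped by label, neither passed (-4.34, adjusted p = 0.0784, and -3.72, adjusted p = 0.154). The 8 neuron markers were lower in trigeminal than in any other E16.5 group, at a sum of 77.8 to 93.7 CPM against 609 to 1100 in olfactory nerve.

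In outer ONL a single library held most of the signal of both POU factors. Pou3f1 stood at 0.0767, 2.32, 0.427 and 0.427 CPM and Pou3f2 at 0.0767, 10.3, 0.498 and 2.32 CPM, with replicate 2 highest for both. They were higher in outer ONL than in olfactory nerve (Pou3f1 2.70, SE 0.82, adjusted p = 0.0169; Pou3f2 2.76, SE 0.92, adjusted p = 0.0287). Without outer ONL replicate 2 the differences were 1.33 (adjusted p = 0.298) and 1.03 (adjusted p = 0.488), and without olfactory nerve replicate 2 they were 4.14 and 4.73. Under the labels neither passed (adjusted p = 0.32 and 0.307). Both calls were also lost without olfactory nerve replicate 1 (adjusted p = 0.0583 and 0.087), 3 (0.0559 and 0.0946) or 4 (0.0657 and 0.0868). Against trigeminal nerve the differences were -1.64 (adjusted p = 0.0635) and -0.96 (adjusted p = 0.424), and without replicate 2 they were -3.01 (adjusted p = 0.00172) and -2.69 (adjusted p = 0.0195).

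Replicate 2 was also the outer ONL library with the most RNA of olfactory bulb neurons. The 8 markers of those neurons summed to 7.36, 150, 41.6 and 90.2 CPM in outer ONL replicates 1 to 4, the same order as Pou3f2 in those libraries, and the 8 general neuron markers to 181, 899, 205 and 580. Pou3f2 is also known as a gene of forebrain neurons. The part of neuronal RNA in the POU factor levels was not tested, and in bulk pieces fewer cells of a type and less RNA per cell cannot be told apart.

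Sox2, a repressor of Schwann cell differentiation that is also expressed in the olfactory epithelium, was low in outer ONL. It stood at 5.77, 2.60 and 3.38 CPM in trigeminal nerve, at 5.26, 3.22, 3.31 and 7.08 in olfactory nerve and at 0, 1.44, 0.213 and 0.0610 in outer ONL. Outer ONL lay below both other groups with no overlap, while olfactory and trigeminal nerve overlapped. Sox2 was 10.6-fold lower in outer ONL than in olfactory nerve (-3.40, SE 0.95, adjusted p = 0.0091). Of the 4 outer ONL libraries 3 held 3 counts or fewer, and without replicate 2 the difference was -5.58 (and -5.31 against trigeminal nerve). It was 8.74-fold lower in outer ONL than in trigeminal nerve (-3.13, SE 0.98, adjusted p = 0.0167), a call that was lost without outer ONL replicate 1 (-2.73, adjusted p = 0.0533), outer ONL replicate 4 (-2.76, adjusted p = 0.0581) or trigeminal replicate 1 (-2.73, adjusted p = 0.0677). Olfactory and trigeminal nerve differed by 0.27 (SE 0.87, adjusted p = 0.868). The 12 markers of olfactory epithelium summed to 402 to 760 CPM in olfactory nerve, 261 to 368 in trigeminal nerve and 53.8 to 84.8 in outer ONL, and their part in the Sox2 difference was not tested.

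Jun, the other repressor of myelination, did not pass in the test across all libraries in any comparison among these 3 nerves. It stood at 30.7, 53.1 and 72.6 CPM in trigeminal nerve and averaged 37.1 ± 4.97 in olfactory nerve and 25.3 ± 8.42 in outer ONL, with overlap throughout. The differences were -1.04 (SE 0.42, adjusted p = 0.0631) for outer ONL against trigeminal nerve, -0.49 (SE 0.41, adjusted p = 0.435) for olfactory against trigeminal nerve, and -0.55 (SE 0.39, adjusted p = 0.358) for outer ONL against olfactory nerve. With the replicate block the last was -0.61 and passed (adjusted p = 0.0338). The first passed with the E16.5 libraries alone (adjusted p = 0.0139), with only the groups compared (0.0274), with that block (0.00957) and in DESeq2 (0.0405). With 1 library left out it passed without outer ONL replicate 3 (-1.24, adjusted p = 0.0423) or trigeminal replicate 1 (-1.30, adjusted p = 0.0354).

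Zeb2, which permits Schwann cell differentiation by repressing its inhibitors, was higher in trigeminal nerve. The trigeminal libraries held 155, 187 and 176 CPM, against 71.0, 66.0, 82.9 and 60.2 in olfactory nerve and 79.1, 75.4, 99.4 and 97.1 in outer ONL. Olfactory nerve was 2.46-fold lower than trigeminal nerve (-1.30, SE 0.16, adjusted p = 4.79e-07) and outer ONL 1.97-fold lower (-0.98, SE 0.16, adjusted p = 3.05e-05). Outer ONL and olfactory nerve differed by 0.33 (SE 0.15, adjusted p = 0.138).

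Counted together, 7 of the 10 genes were lower in outer ONL than in trigeminal nerve and none was higher. Of all genes tested, 25.8% were called in that comparison and 12.3% were lower. Between olfactory and trigeminal nerve 7 of the 10 were lower in olfactory nerve, and of all genes 23.6% were called and 10.6% were lower. Egr2, Egr3, Nab1, Nab2 and Zeb2 were among the 7 in both comparisons, which share the trigeminal libraries. Egr1 and Sox2 completed the 7 for outer ONL, and Pou3f1 and Pou3f2 those for olfactory nerve. Between outer ONL and olfactory nerve 4 of the 10 were called, against 22.0% of all genes: Pou3f1 and Pou3f2 were higher (10.2% of all genes were) and Nab2 and Sox2 lower (11.8% were). The median log2 fold change of the 10 genes was -1.65, -1.11 and -0.57 in the 3 comparisons, and that of all genes 0.012, -0.0096 and 0.013. Since the 10 genes were chosen with earlier results of these data known, these counts and medians are descriptions.

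**Figure D2:**
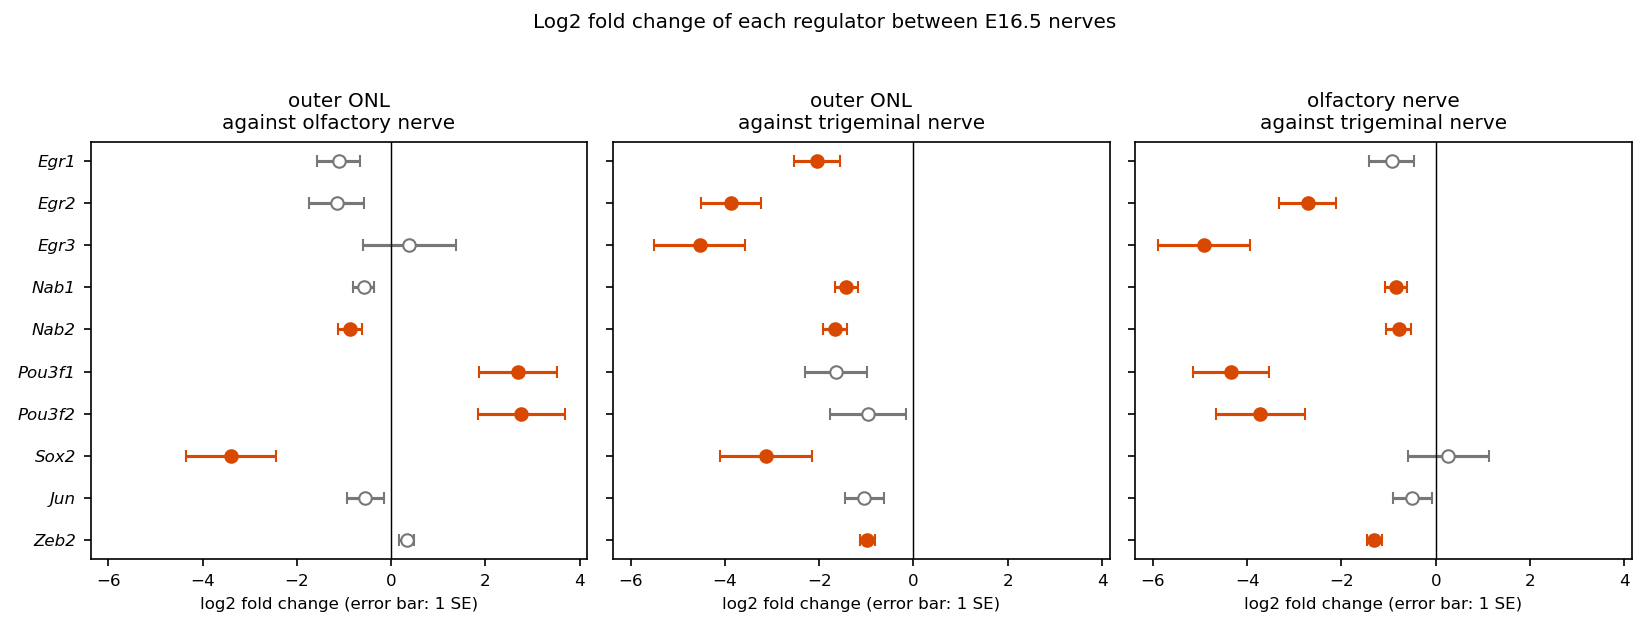
Log2 fold change of each gene, first group minus second, with bars of 1 SE, in each comparison. Filled orange points passed the test at an adjusted p under 0.05 over 19332 genes and open grey points did not. In the comparisons with trigeminal nerve the called points all lie below 0.

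The scale of the libraries bears on these counts. With libraries scaled to total count, the median of all genes moved to 0.130 for outer ONL against trigeminal nerve, 0.244 for olfactory against trigeminal nerve and -0.127 for outer ONL against olfactory nerve. The share of all calls that were higher moved with it, from 52.5% to 62.7%, from 55.1% to 77.5% and from 46.4% to 34.1%. The called members kept their direction, but Nab1 and Nab2 were no longer called between olfactory and trigeminal nerve, which left 5 of the 10. By marker sum the trigeminal pieces also held more RNA of mesenchyme and skeletal muscle. The 8 mesenchyme markers summed to 23474 to 27612 CPM there, against 9541 to 16178 in olfactory nerve and 5730 to 11005 in outer ONL. The 8 skeletal muscle markers summed to 174 to 278 CPM in trigeminal nerve and to at most 31.9 in the other E16.5 groups. Of the 8 mesenchyme markers 5 were called lower in outer ONL than in trigeminal nerve, and 3 in olfactory nerve. Not every tissue ran this way. The sums of neuron and olfactory epithelium markers were lower in trigeminal than in olfactory nerve. Those of mural cells (1045 to 1835 against 830 to 2967 CPM) and macrophages (381 to 455 against 301 to 613 CPM) overlapped. The part of other tissues in the differences of the 10 genes was not tested.

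Set against Sox10 in the same library, the genes fell into 2 kinds by group mean. Per 100 CPM of Sox10, the mean level in trigeminal nerve was 4.91 CPM for Egr2, 1.27 for Egr3, 0.772 for Pou3f1 and 1.95 for Pou3f2, and in olfactory nerve it was 1.84, 0.118, 0.0783 and 0.304, all below trigeminal nerve. For Egr1 (26.1 against 18.4), Nab1 (15.4 against 9.70), Nab2 (14.4 against 8.96), Zeb2 (58.9 against 52.2), Jun (31.7 against 15.5) and Sox2 (4.18 against 1.17) the mean per Sox10 was higher in olfactory nerve. Outer ONL was lowest of the 3 for 8 of the 10 genes, with 0.173 for Egr2, 2.39 for Egr1, 1.85 for Nab1, 1.47 for Nab2, 13.7 for Zeb2 and 3.97 for Jun, and the exceptions were Pou3f1 at 0.123 and Pou3f2 at 0.488. Sox10 itself averaged 645 ± 60.9 CPM in outer ONL, 126 ± 37.5 in olfactory nerve and 335 ± 37.0 in trigeminal nerve. These ratios are descriptions with no test, since the pieces were cut by Sox10 fluorescence. Only means were compared, not the spread between libraries, and the means of Zeb2 lay close together. Each level also holds RNA of every cell type in the piece, mesenchyme included, while Sox10 marks the glia. The part of other cells in these ratios was not tested.

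**Figure D3:**
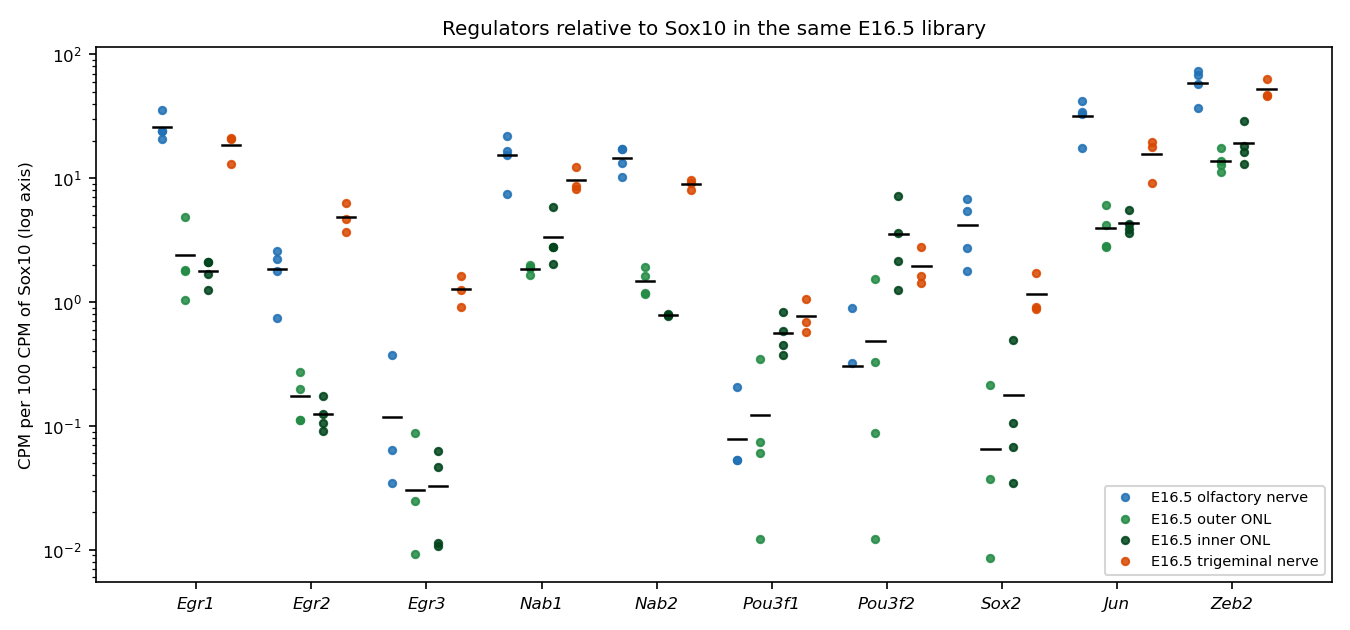
Level of each gene per 100 CPM of Sox10 in the same library, on a log axis, for the E16.5 groups. Each point is a library, the bar is the group mean, and libraries with 0 counts are not drawn. Egr2 and Egr3 are highest in trigeminal nerve, at means of 4.91 and 1.27, and outer ONL is lowest of the 3 nerves for 8 of the 10 genes.

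In the inner ONL, 2 of the 10 genes differed from the outer ONL, against 14.1% of all genes. Pou3f2 was higher in the inner ONL, at 21.6, 26.2, 14.4 and 7.05 CPM (2.37, SE 0.78, adjusted p = 0.0372). That call was lost when any of 6 of the 8 libraries was left out, among them outer ONL replicate 1 (1.96, adjusted p = 0.101) and inner ONL replicate 2 (2.07, adjusted p = 0.119), and the groups overlapped through outer ONL replicate 2, without which the difference was 4.10. Nab2 was lower in the inner ONL, at 4.64, 2.93, 5.26 and 4.40 CPM, with no overlap (-1.12, SE 0.26, adjusted p = 0.00232). The 8 mesenchyme markers were all lower there too, summing to 920 to 2166 CPM against 5730 to 11005 in outer ONL, and their part was not tested. Pou3f1 stood at 2.69, 3.01, 3.92 and 2.11 CPM in the inner ONL, a difference of 1.81 (SE 0.63) that did not pass (adjusted p = 0.0519). Egr1 (7.46, 7.59, 11.46 and 11.99 CPM), Egr2 (0.538, 0.451, 1.18 and 0.602 CPM), Egr3 (1, 3, 4 and 1 counts) and Sox2 (0.403, 1.80, 0.235 and 0.602 CPM) did not pass. Nab1, Jun and Zeb2 averaged 16.8 ± 3.90, 24.0 ± 7.80 and 98.5 ± 7.96 CPM and did not pass either. The olfactory bulb neuron markers summed to 390 to 773 CPM in the inner ONL, above the 7.36 to 150 of the outer ONL, and all 8 of them were called higher.

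At E13.5 the POU factors were far higher in the ONL than in the nerve. Pou3f1 stood at 9.68, 39.2, 42.2, 19.1 and 29.8 CPM in the 5 ONL libraries, and in the 7 nerve libraries it held 0 to 3 counts, 10 in all. The ratio of the ONL mean to the pooled nerve level was 255, with an exact Poisson 95% interval of 139 to 531 that covers counting error of the nerve counts only. Pou3f2 stood at 73.3, 109, 72.0, 41.9 and 55.0 CPM in the ONL and held 9 counts in the nerve, 7 of them in replicate 7. The groups did not overlap for either gene (Pou3f1 7.93, SE 0.66, adjusted p = 8.58e-11; Pou3f2 9.38, SE 0.92, adjusted p = 2.25e-09, and 11.05 without nerve replicate 7). Of the 8 olfactory bulb neuron markers 7 were also called higher in the ONL and 1 lower. Their sums were 777 to 1018 CPM in the ONL and 183 to 303 in the nerve, where Neurod1 was the largest part at 133 CPM on average. Eomes, Neurod2 and Tbx21 were at 3 counts or fewer in every nerve library. The part of these neurons was not tested.

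Of the other genes, Nab2 was lower in E13.5 ONL, at 1.94 to 5.66 CPM against 9.73 to 19.0 in the nerve (-1.55, SE 0.22, adjusted p = 1.63e-06). Egr1 was lower too, at 10.2 ± 3.65 CPM against 22.5 ± 13.9 (-1.14, SE 0.39, adjusted p = 0.0256), but the call was lost without any of 5 of the 12 libraries, with values from -0.93 (adjusted p = 0.0716, without the library labelled E13.5 ONL 1) to -1.12 (adjusted p = 0.0533, without that labelled E11.5 olfactory nerve 2). Sox2 differed by -1.76 (adjusted p = 0.0567): it stood at 1.11, 13.1, 0.260, 1.04 and 2.54 CPM in the ONL and at 6.71 to 20.9, median 13, in the nerve. In all, 4 of the 10 were called, against 31.5% of all genes. With the libraries grouped by label the values were -2.78 for Pou3f1 (adjusted p = 0.0989), -2.68 for Pou3f2 (adjusted p = 0.157), 0.63 for Nab2 (adjusted p = 0.0627) and 0.80 for Egr1 (adjusted p = 0.112), each with the opposite sign, and -1.28 for Sox2 (adjusted p = 0.233). Nab1 (-0.70, adjusted p = 0.0141) and Jun (1.45, adjusted p = 0.00522) were then the 2 called, against 17.7% of all genes. The E13.5 libraries share embryos in both groupings, so these p-values are too small.

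**Figure D4:**
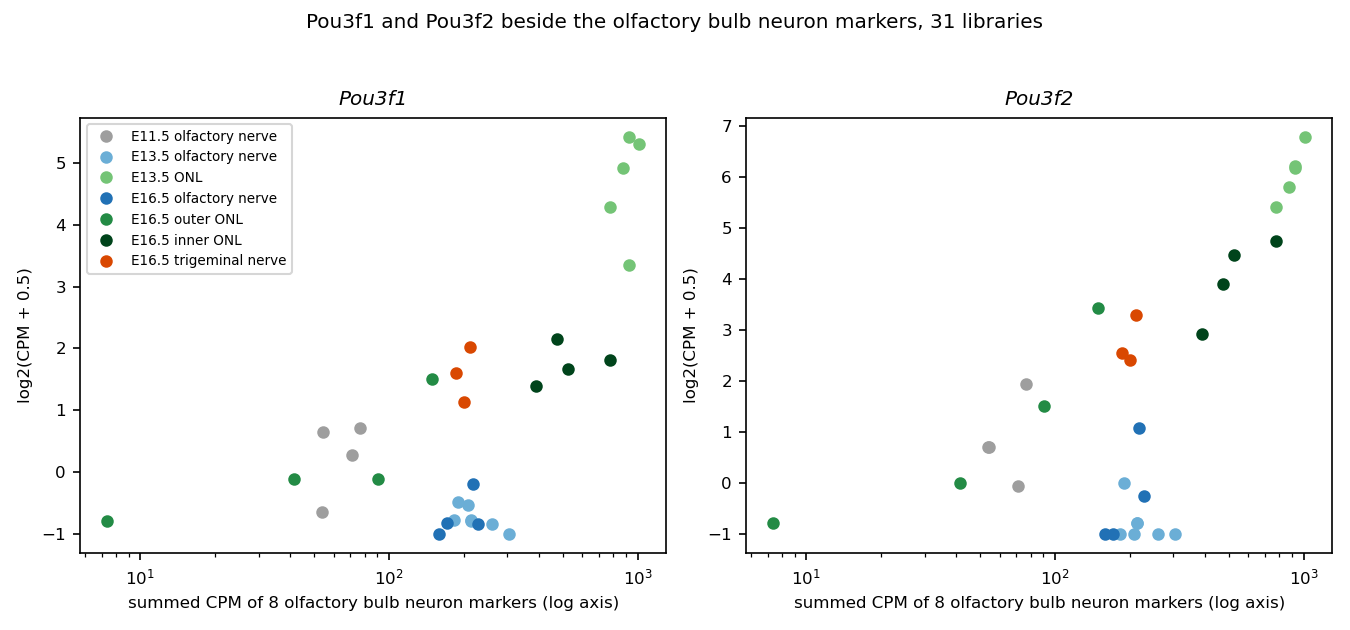
Pou3f1 and Pou3f2 as log2(CPM + 0.5) against the summed CPM of 8 olfactory bulb neuron markers on a log axis, in the 31 libraries coloured by group. The E13.5 ONL libraries, as grouped here, lie at the upper right, with marker sums of 777 to 1018 CPM. The trigeminal libraries, at 186 to 212, lie above olfactory nerve libraries with similar sums.

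In trigeminal nerve that marker sum was nearly all Reln, at 197 CPM on average, and Neurod2 was at 3 counts or fewer in every trigeminal library. The 8 general neuron markers summed to at most 93.7 CPM in those libraries, and the part of neuronal RNA in the POU factor levels there was not tested.

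Along the olfactory nerve, Egr2 was higher at E13.5 than at E11.5. It held 0, 0, 2 and 5 counts in the 4 E11.5 libraries, which had 24218053 to 36705535 counts in all, and 7 to 16 counts in the 7 E13.5 libraries, which had 5297347 to 16413112. On the CPM scale the E11.5 values ran from 0 to 0.162 and the E13.5 values from 0.518 to 1.90, with no overlap (3.96, SE 0.70, adjusted p = 5.26e-05, and 5.09 without the library labelled E13.5 ONL 5). Nab1 was also higher at E13.5 (0.73, SE 0.20, adjusted p = 0.0048). Pou3f1 (-2.73, SE 0.71, adjusted p = 0.00293), Pou3f2 (-3.87, SE 1.02, adjusted p = 0.00364, from -5.54 without E13.5 nerve replicate 7 to -3.12 without the library labelled E13.5 ONL 2), Jun (-1.52, SE 0.33, adjusted p = 0.000641) and Nab2 (-0.59, SE 0.21, adjusted p = 0.0295) were lower. Jun fell from 61.7 to 116 CPM at E11.5 to 15.1 to 59.1 at E13.5, with no overlap, and Pou3f1 from 0.136, 0.705, 1.07 and 1.14 CPM to at most 0.210, with a ratio of E11.5 over E13.5 of 6.93 (exact Poisson 95% interval 3.77 to 14.4). The Nab2 call was lost without any of 5 of the 11 libraries, with values from -0.48 to -0.56 and adjusted p from 0.0504 to 0.119.

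In all, 6 of the 10 were called between these stages, against 36.6% of all genes. With the libraries grouped by label, Egr2 differed by 1.05 (adjusted p = 0.444), Nab1 by -0.09 (adjusted p = 0.822), Pou3f1 by -2.62 (adjusted p = 0.0968), Pou3f2 by -3.17 (adjusted p = 0.076) and Jun by 0.11 (adjusted p = 0.888), and Nab2 alone was called, at 1.54 (adjusted p = 0.000522), against 17.5% of all genes. The neuron markers summed to 2267 to 2770 CPM at E11.5 and 863 to 1840 at E13.5, and the endothelial markers to 35.2 to 189 and 367 to 535, and their part was not tested. Libraries shared embryos at both stages (4 from 2 and 7 from 4), so these p-values are too small.

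From E13.5 to E16.5 Egr2 was the only 1 of the 10 called in olfactory nerve, against 28.8% of all genes, rising from 1.02 ± 0.491 to 2.47 ± 1.65 CPM with overlap (1.32, SE 0.51, adjusted p = 0.0489). The call was lost without any of 9 of the 11 libraries, the smallest value being 0.82 (adjusted p = 0.293) without E16.5 olfactory nerve replicate 2. With the libraries grouped by label Egr2 differed by 1.42 (adjusted p = 0.132), and Pou3f1 alone was called, at -5.13 (adjusted p = 0.0214), against 25.1% of all genes. Egr3 was at 1 count in all at E13.5 and 9 at E16.5, of which 7 were in replicate 4, and did not pass (2.95, adjusted p = 0.0585). The OEC markers rose in 6 of 8 genes over the same interval, from 551 to 1117 CPM in sum to 1715 to 3949. Of the mesenchyme markers 6 rose and 2 fell (sums of 3543 to 6412, then 9541 to 16178). The macrophage markers rose in 7 of 8 (112 to 269, then 301 to 613). The mural cell markers rose in 5 of 8. Their part in the Egr2 difference was not tested. The E13.5 pieces share embryos, so the p-values are too small.

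In the ONL the POU factors fell between E13.5 and E16.5. Pou3f1 went from 28.0 ± 13.7 to 0.813 ± 1.02 CPM in outer ONL (-5.08, SE 0.67, adjusted p = 4.51e-07) and Pou3f2 from 70.3 ± 25.3 to 3.30 ± 4.77 (-4.39, SE 0.82, adjusted p = 7e-05), with no overlap for either. Without outer ONL replicate 2 these were -6.44 and -6.12. In the E16.5 inner ONL they stood at 2.93 ± 0.758 and 17.3 ± 8.38 CPM, also below every E13.5 ONL library. Nab1 fell from 26.4 ± 5.70 to 11.9 ± 0.704 CPM (-1.14, SE 0.22, adjusted p = 8.92e-05). Nab2 rose from 4.36 ± 1.45 to 9.38 ± 1.83 (1.05, SE 0.24, adjusted p = 0.000766) and Zeb2 from 62.3 ± 9.40 to 87.8 ± 12.2 (0.50, SE 0.15, adjusted p = 0.00671). Sox2 fell (-3.06, SE 0.93, adjusted p = 0.00855), a call that rested on the library labelled E11.5 olfactory nerve 2, without which it was -1.54 (adjusted p = 0.149), and without outer ONL replicate 2 it was -5.24.

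These were 6 of the 10, against 41.9% of all genes. Under the labels the differences were 0.34 for Pou3f1 (adjusted p = 0.863), 1.38 for Pou3f2 (adjusted p = 0.469), -0.32 for Nab1 (adjusted p = 0.26), -1.001 for Nab2 (adjusted p = 0.00646), -3.47 for Sox2 (adjusted p = 0.00744) and 0.58 for Zeb2 (adjusted p = 0.00279). Egr1 (-1.15), Egr2 (2.13), Egr3 (3.72) and Jun (-1.69) were then called too, 7 in all against 35.2% of all genes. The olfactory bulb neuron markers fell from 777 to 1018 CPM at E13.5 to 7.36 to 150 in E16.5 outer ONL, and their part was not tested. The E13.5 ONL pieces came from fewer embryos than pieces, so these p-values are too small.

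The difference between ONL and nerve was tested against itself across the stages. For Pou3f1 the ONL-over-nerve difference was 7.93 at E13.5 and 2.70 at E16.5 with outer ONL, a change of -5.23 (SE 1.27, adjusted p = 0.00503), and for Pou3f2 it was 9.38 and 2.76, a change of -6.61 (SE 1.44, adjusted p = 0.00194). No other member passed, and 12.3% of all genes did. Without E16.5 olfactory nerve replicate 2, which held 6 of the 8 Pou3f1 counts and 26 of the 32 Pou3f2 counts of its group, the changes were -3.79 (adjusted p = 0.255) and -4.65 (adjusted p = 0.174). Without outer ONL replicate 2 they were -6.60 and -8.34, and without E13.5 nerve replicate 7 that of Pou3f2 was -8.29. With the libraries grouped by label they were 5.47 (adjusted p = 0.0796) and 5.44 (adjusted p = 0.098), and Egr1 (-1.91, adjusted p = 0.0223), Nab2 (-1.51, adjusted p = 0.00773) and Jun (-1.999, adjusted p = 0.0125) were called, against 12.5% of all genes. Embryos are shared at E13.5, so the p-values are too small.

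Across the 7 groups each gene had its own order. For Egr2 it was E16.5 trigeminal nerve (16.2 CPM), E16.5 olfactory nerve (2.47), E16.5 outer ONL (1.10), E13.5 nerve (1.02), E16.5 inner ONL (0.692), E13.5 ONL (0.564) and E11.5 nerve (0.0611), and every neighbour in that order below trigeminal nerve overlapped the next. For Pou3f2 it was E13.5 ONL (70.3), inner ONL (17.3), trigeminal nerve (6.497), outer ONL (3.30), E11.5 nerve (1.51), E16.5 olfactory nerve (0.485) and E13.5 nerve (0.0920), and E13.5 ONL alone did not overlap the next. Pou3f1 had the same 2 extremes, E13.5 ONL at 28.0 and E13.5 nerve at 0.0993 CPM. Jun was highest in E11.5 nerve, at 90.9 ± 25.5 CPM, and Sox2 in E13.5 nerve, at 12.7 ± 4.86, where the olfactory epithelium markers summed to 597 to 839 CPM, against 402 to 760 in E16.5 olfactory nerve. Zeb2 lay between 57.5 and 98.5 CPM on average in all groups but trigeminal nerve, where it was 173 ± 16.2. Under the labels the early places changed: Pou3f1 and Pou3f2 were highest in E11.5 nerve (27.6 and 74.1 CPM) and stood at 0.626 and 1.21 in E13.5 ONL, Jun was highest in E13.5 ONL (81.4) and Sox2 still in E13.5 nerve (12.1).

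The gene lists that follow were compared among the 3 E16.5 nerves, where 25.8% of all genes were called for outer ONL against trigeminal nerve (12.3% lower), 23.6% for olfactory against trigeminal nerve (10.6% lower) and 22.0% for outer ONL against olfactory nerve (10.2% higher and 11.8% lower), with all-gene medians of 0.012, -0.0096 and 0.013. Among 18 myelin and lipid genes known as targets of Egr2 or Sox10, most were lower in the olfactory system than in trigeminal nerve, as Egr2 was. In outer ONL 12 were lower, 2 higher and 4 not called, with a median of -3.09, and in olfactory nerve 14 were lower, 1 higher and 3 not called, with a median of -2.64. Mbp, the myelin basic protein, stood at 27.4 CPM in outer ONL, 49.5 in olfactory nerve and 1114 in trigeminal nerve (outer ONL against trigeminal nerve -5.34, SE 0.26, adjusted p = 1.02e-14). Fa2h, which makes myelin lipids, was lower by -5.18 in outer ONL (SE 1.02, adjusted p = 0.000334) and was at 3 counts or fewer in every olfactory nerve library. Cldn19, a tight junction protein of myelin, was at 3 counts or fewer in every outer ONL library and was lower by -7.40 in olfactory nerve (SE 1.07, adjusted p = 7e-06). Ugt8a, the enzyme of galactolipid synthesis, was lower in olfactory than in trigeminal nerve (-4.86, SE 0.34, adjusted p = 1.57e-11). Between outer ONL and olfactory nerve 5 were higher and 4 lower: the gap junction gene Gjb1 (4.55, SE 0.77, adjusted p = 6.26e-05) and Ugt8a (2.68, SE 0.31, adjusted p = 1.18e-07) were higher and Pllp, a myelin membrane protein, was lower (-2.25, SE 0.53, adjusted p = 0.00199).

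Of 16 partners of the promyelinating step, such as receptors and chromatin enzymes, 3 were higher and 4 lower in outer ONL than in trigeminal nerve (25.8% of all genes were called), and 5 were lower in olfactory nerve than in trigeminal nerve (23.6% called, 10.6% lower). Tead1, a partner of Yap1, was lower in outer ONL (-1.89, SE 0.24, adjusted p = 3.03e-07) and in olfactory nerve (-0.81, SE 0.23, adjusted p = 0.01). Nfatc4, a calcium-responsive factor, was lower in outer ONL than in trigeminal nerve (-1.32, SE 0.25, adjusted p = 0.000117) and than in olfactory nerve (-1.58, SE 0.23, adjusted p = 6.75e-06). Erbb3, the neuregulin receptor, was higher in outer ONL than in olfactory nerve (1.35, SE 0.26, adjusted p = 0.000299), 1 of 3 higher and 2 lower there, and lower in olfactory than in trigeminal nerve (-1.26, SE 0.28, adjusted p = 0.000993). The coactivator Wwtr1 was lower in olfactory nerve (-0.86, SE 0.21, adjusted p = 0.00245). Sox10 was also in this list and was called in all 3 comparisons, but it guided the cuts. The medians of the list were -0.16, -0.26 and 0.064 for outer ONL against trigeminal nerve, olfactory against trigeminal nerve and outer ONL against olfactory nerve.

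Of 16 genes of immature Schwann cells or of negative regulators, 15 were tested. In outer ONL 7 were lower and 2 higher than in trigeminal nerve (median -1.45, all genes 0.012), and 7 lower and 3 higher than in olfactory nerve (median -0.80, all genes 0.013). In olfactory nerve 5 were lower and 3 higher than in trigeminal nerve (median -0.33, all genes -0.0096). Pax3, a factor of neural crest and immature glia, averaged 19.8 CPM in trigeminal nerve and 1.04 in olfactory nerve (-4.24, SE 0.70, adjusted p = 4.19e-05) and was at 3 counts or fewer in every outer ONL library. Ngfr, the p75 neurotrophin receptor, was lower in outer ONL (-3.08, SE 0.42, adjusted p = 1.05e-06) and in olfactory nerve (-3.39, SE 0.42, adjusted p = 3.55e-07) than in trigeminal nerve. Id4, an inhibitor of basic helix-loop-helix factors, was lower in outer ONL than in trigeminal nerve (-2.76, SE 0.48, adjusted p = 4.39e-05) and olfactory nerve (-2.29, SE 0.46, adjusted p = 0.000392). Olig1 ran the other way, higher in olfactory than in trigeminal nerve (3.09, SE 0.59, adjusted p = 0.000213) and lower in outer ONL than in olfactory nerve (-4.55, SE 0.60, adjusted p = 1.21e-06).

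Of the 22 immediate early genes other than members, 20 were tested, and none was higher in outer ONL. There 12 were lower than in trigeminal nerve (median -1.54, against 12.3% of all genes lower), among them Fosl2 (-3.43, SE 0.39, adjusted p = 6.3e-08), Klf4 (-3.11, SE 0.42, adjusted p = 1.06e-06) and Atf3 (-2.94, SE 0.60, adjusted p = 0.000341). Against olfactory nerve 6 were lower (median -0.96, against 11.8% of all genes), among them Ccn1 (-2.63, SE 0.35, adjusted p = 1.05e-06), Ier3 (-1.82, SE 0.34, adjusted p = 0.000171) and Btg2 (-1.72, SE 0.24, adjusted p = 2.86e-06). Between olfactory and trigeminal nerve 7 were lower and 2 higher (median -0.55, against 23.6% of all genes called), with Atf3 (-3.39, SE 0.61, adjusted p = 8.78e-05) and Nr4a1 (-2.37, SE 0.30, adjusted p = 5.83e-07) lower and Ier3 (2.25, SE 0.38, adjusted p = 4.42e-05) higher.

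Of 6 relatives of the members (Pou3f3, Pou3f4, Sox1, Sox3, Zeb1 and Egr4), 5 were tested and Egr4 was too low. In outer ONL 4 were higher than in olfactory nerve, against 10.2% of all genes: the POU factor Pou3f3 (3.07, SE 0.79, adjusted p = 0.00494), Zeb1, the relative of Zeb2 (0.80, SE 0.13, adjusted p = 3.67e-05), and Pou3f4 and Sox3, which were at 3 counts or fewer in every olfactory nerve library. Pou3f4 was the only 1 called against trigeminal nerve, higher in outer ONL (2.48, SE 0.81, adjusted p = 0.0229). In olfactory nerve 3 were lower than in trigeminal nerve, against 10.6% of all genes, Zeb1 (-1.04, SE 0.14, adjusted p = 1.65e-06) and again Pou3f4 and Sox3.

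Across the 31 libraries, the genes whose log2(CPM + 0.5) ran most like each member were found by Pearson correlation among 10712 genes tested with a mean of at least 10 CPM. The libraries share groups and depth, so these are descriptions. Pou3f1 was closest to Pou3f2 (r = 0.949), Rnd2 (0.905) and Tfap2e (0.893), a gene of olfactory bulb neurons. Egr3 was closest to Pter (0.929), Epb41l3 (0.914) and Mbp (0.892), and Egr2 to Scara5 (0.922), Prss35 (0.918) and Acer3 (0.913). Nab2 was closest to Trip6 (0.931), Rarg (0.929) and Pdlim7 (0.926), and Zeb2 to Gas2l3 (0.906), Me1 (0.8996) and Fbxo7 (0.899). Pou3f2 was closest to Celf2 (0.911), Gm17750 (0.910) and Pfkp (0.905), Egr1 to Rras (0.869), Phlda3 (0.854) and Ccnd3 (0.851), and Jun to Tcf3 (0.870), Gas2l1 (0.870) and Fam53a (0.869). Sox2 (Fgf15 0.829, Kcne3 0.819, Cadps2 0.817) and Nab1 (Slmap 0.788, Fam91a1 0.780, Tmed7 0.773) had the lowest leading correlations.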

How the data were processed

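Reads of 31 libraries of laser-cut nerve pieces (amplified with SMART-seq v4, indexed with Nextera XT) were aligned by the authors with TopHat2 2.1.0 to mm10 and counted per gene with HTSeq on the Ensembl 84 annotation. The deposited values are raw counts, whole numbers per gene and library with no normalization. Strand use in the counting is not given in the sources used here. The table lists 47729 genes, of which 33331 had a count, and 1 empty line that was left out. Every column was matched to a sample by title (0 columns unmatched). Total counts ranged from 3512627 to 36705535, and the floor in each library was 3 counts, the limit that a count of 0 allows. Floors and exact Poisson intervals cover counting error only.

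All libraries entered a single fit with 7 groups in edgeR 4.0.16 (R 4.3.3): filtering by expression, TMM scaling, quasi-likelihood tests, Benjamini-Hochberg adjustment over 19332 genes and a call at an adjusted p under 0.05. No covariate was used, and the study states none. The early libraries were grouped so that group means matched those the study published, which departs from their labels. Alternatives were total count and upper quartile scaling, no filter, a filter of 10 CPM in 3 libraries, the groups of the labels, the E16.5 libraries alone, the groups compared alone, a replicate block, DESeq2 1.42.0, and each library left out. The test was tried on simulated data.

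The 10 genes and all gene lists were chosen with earlier results of these data known. All 10 members are reported. Of each other list, counts, medians and up to 3 called genes with the largest change in each comparison of the 3 E16.5 nerves are named. For each member the 3 genes most like it are named. The values of 1 marker gene are not reported here. Pearson correlations used log2(CPM + 0.5) over 31 libraries. Levels per kilobase used merged exon lengths of GENCODE.

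At E16.5 residuals of the 4 same-numbered pairs of outer ONL and olfactory nerve pieces correlated at 0.253 to 0.530. Other pairs correlated at -0.400 to 0.384. These ranges overlap, so the replicate numbers may pair pieces of an embryo but this is not settled. The replicate number comes from the titles. No 2 libraries agreed within sampling noise (lowest chi-square per degree of freedom within a group 8.73).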

Additional observations from a re-analysis of the deposited data

Results flagged for a closer look

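In 60 sets of values, 10 genes in the groups of 4 to 7 libraries, the gap between the highest or lowest library and the rest was examined. By Dixon's criterion 8 sets held a library far from the others. Its nominal rate of about 1 in 20 sets assumes normally distributed values. That rate does not hold for sets near 0 counts, so the 8 cannot be set against it. Outer ONL replicate 2 at E16.5 held 2.32 CPM of Pou3f1, against 0.0767 to 0.427 in the other 3, and 1.44 CPM of Sox2, against 0 to 0.213. That library also had the highest sum of olfactory bulb neuron markers in its group, 150 CPM against 7.36 to 90.2. In E13.5 ONL the library labelled E11.5 olfactory nerve replicate 2 held 13.1 CPM of Sox2, against 0.260 to 2.54 in the other 4. In E13.5 olfactory nerve replicate 7 held 0.489 CPM of Pou3f2 from 7 counts, against at most 0.0811.

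The other 4 were all Egr3 at few counts. E16.5 olfactory nerve replicate 4 held 0.387 CPM (7 counts), against at most 0.0618. In E13.5 ONL the library labelled E11.5 olfactory nerve replicate 1 held 0.553 CPM from 2 counts. E13.5 olfactory nerve replicate 7 held 0.0699 CPM from 1 count, and in E11.5 nerve the library labelled E13.5 ONL replicate 3 held 0.0271 CPM from 1 count, while the rest of each group held none. A set with counts in a single library is flagged whatever their number.

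The change of the ONL over nerve difference from E13.5 to E16.5, tested as an interaction, stood out for Pou3f1 (-5.23, SE 1.27, adjusted p = 0.00503) and Pou3f2 (-6.61, SE 1.44, adjusted p = 0.00194). Both stood lower in every E16.5 outer ONL library than in every E13.5 ONL library.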

How the results depend on the processing

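Among 873 values of single members under an alternative, 762 kept their direction and side of the threshold, 75 kept direction but no longer passed, 22 passed newly and 14 changed sign. Grouping by label apart, the counts were 734, 64, 22 and 2 of 822. The cause of the changes was not tested.

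With the libraries grouped by label, the number of the 10 genes called was 2 for outer ONL against olfactory nerve, 4 for olfactory against trigeminal nerve, 1 for inner against outer ONL, 2 for E13.5 ONL against nerve and 1 for E13.5 against E11.5 nerve. Of all 50 early member values, 26 had the opposite sign under that grouping. Among the results examined under every alternative there were 12 such values, namely Egr1 0.80, Pou3f1 -2.78, Pou3f2 -2.68 and Nab2 0.63 for E13.5 ONL against nerve, Nab1 -0.091, Nab2 1.54 and Jun 0.11 for E13.5 against E11.5 nerve, Pou3f1 0.34, Pou3f2 1.38 and Nab2 -1.001 for outer ONL against E13.5 ONL, and Pou3f1 5.47 and Pou3f2 5.44 for the change between stages. Of all genes, 1658 were then called for inner against outer ONL (2733 in the grouping used), 3421 for E13.5 ONL against nerve (6087) and 3380 for E13.5 against E11.5 nerve (7071). Inner against outer ONL gave 1 call with total count scaling, with the E16.5 libraries alone and with the groups compared alone. E16.5 against E13.5 nerve gave 0 calls with total count or upper quartile scaling and without a filter, and 2 with the groups compared alone.

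With libraries left out in turn, the calls ranged from 2 to 5 for outer ONL against olfactory nerve, from 1 to 3 for inner against outer ONL, from 0 to 1 for E16.5 against E13.5 nerve and from 1 to 3 for the change between stages. Egr3 in outer ONL against olfactory nerve ran from -0.89 to 1.84.

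With the replicate block, 6 of the 10 were called for outer ONL against olfactory nerve, adding Egr1 and Jun. In the other E16.5 comparisons same-numbered pieces were not all alike (lowest same-number correlations -0.304, -0.327 and -0.145), so the numbers may not follow embryos there. For outer ONL against trigeminal nerve the block still gave 7 calls, with Jun gained (-1.12, adjusted p = 0.00957) and Sox2 lost (-3.36, adjusted p = 0.083). For olfactory against trigeminal nerve it gave 7, with Egr1 gained (-0.79, adjusted p = 0.0209) and Nab1 lost (-0.77, adjusted p = 0.0803). For inner against outer ONL it gave 3. No block was fitted for the early groups. The stricter filter left out Egr3 and kept 12366 genes.

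Depth limits Egr3 outside trigeminal nerve, Egr2 in E11.5 nerve, Sox2 in outer ONL, the POU factors in E13.5 nerve and Pou3f1 in E16.5 olfactory nerve, where most libraries of each group held 3 counts or fewer. Trigeminal nerve has 3 libraries, and early pieces share embryos.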
